A study of Mus musculus with 8 samples.

Results

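The genes described here are 10 members of the RGS group, the regulators of G protein signaling and a membrane anchor of some of them: *Rgs2*, *Rgs4*, *Rgs6*, *Rgs7*, *Rgs7bp*, *Rgs8*, *Rgs10*, *Rgs12*, *Rgs14* and *Rgs20*. They were chosen by name from 38031 genes with a counted transcript, with the comparison of *Fezf2 shRNA* and *non-silencing shRNA* already known, since *Rgs7* is among its clearest increases. Values of that comparison are therefore given for the members as a description: no p is given, and where a member is named as called this is not evidence for the group. *Fezf2* encodes a zinc finger transcription factor of deep-layer projection neurons of the cortex, and the study asked how its reduction in the mature primary motor cortex (M1) changes gene expression. Male Swiss Webster mice were injected in M1 at P21 to P25 with lentivirus carrying an mCherry reporter and either *Fezf2 shRNA* (4 libraries) or *non-silencing shRNA* as the control (4 libraries), and tissue was taken at P49 to P53. Both vectors used a rat *Synapsin I* promoter, which is active in neurons, and placed the shRNA between *mir-30* flanks, so controls also carried virus, mCherry and an shRNA. M1 was dissected by its mCherry fluorescence with all layers and the meninges, which means that cells without virus were included. Total RNA was sequenced, and reads were counted over the whole genomic interval of each transcript, introns included. With 1 transcript per gene, the libraries held between 54684016 and 58003814 counts.

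RGS proteins bind active G protein alpha subunits and speed up the hydrolysis of their GTP, which shortens the response to a receptor. In neurons they shape the timing of inhibition through Gi/o-coupled receptors and their channels, as well as signaling through Gq. The family is divided by sequence into the R4, R7, R12 and RZ groups; R7 proteins work as a complex with the G protein subunit encoded by *Gnb5*, and the product of *Rgs7bp* tethers that complex to the membrane.

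*Fezf2*, the targeted gene, gave 687.5, 767.0, 734.7 and 702.2 normalized counts in the *non-silencing shRNA* libraries, where normalized counts are scaled to the mean effective library size. The 4 *Fezf2 shRNA* libraries gave 620.6, 582.9, 568.3 and 592.5. All 4 were below every control. The log2 fold change was −0.29 ± 0.076 (SE, n = 4 and 4). This was short of the threshold in edgeR's quasi-likelihood test (adjusted p = 0.0765 after Benjamini-Hochberg) and past it in DESeq2 (adjusted p = 0.0256). Over 21 settings of the processing the adjusted p of *Fezf2* was between 0.0256 and 0.453, and with the length offset described below its log2 fold change was −0.18.

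The shRNA is shown because it is what separates the groups, and because matches of its strands in the RGS transcripts can be read directly. The capitals mark bases 2 to 8 of the antisense strand, the seed through which a small RNA pairs with other transcripts.
shRNA sense strand: gggaactacaagaatcaca
shRNA antisense strand: tGTGATTCttgtagttccc
All 19 bases of the sense strand were found in 1 of the 9948 tested genes with a transcript sequence in GENCODE M21, *Fezf2*. The longest run shared with a transcript of the 10 members was between 7 and 10 bases, in either strand, the 10 bases lying in *Rgs20*. In comparison, 50 tested genes (0.503%) held a run of at least 12 bases. The letters that pair with the seed were present in 1 of 10 members, *Rgs7* (4 of 8 annotated transcripts), and in 19.7% of the tested genes. At that place the counted *Rgs7* transcript matched the sense strand at 11 of 19 bases, with the seed match in capitals below, in its coding sequence. The first and last bases of the strand made in the cells were not given in the sources used here, so the seed assumes the antisense strand as printed.
*Fezf2* site: gggaactacaaGAATCACa
*Rgs7* site: gggtggcggacGAATCACc

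*Rgs6* and *Rgs7*, both of the R7 group, were higher in the *Fezf2 shRNA* libraries, by 1.51-fold and 1.43-fold. The R7 genes outside the members, *Rgs9* and *Rgs11*, were not called, at log2 fold changes of −0.02 ± 0.24 and −0.27 ± 0.26 (SE). *Rgs8* and *Rgs20* had mean folds of 1.36 and 1.30 with overlapping groups, *Rgs12* was lower at 0.835-fold, and *Rgs2*, *Rgs4*, *Rgs7bp*, *Rgs10* and *Rgs14* lay between 0.894-fold and 1.04-fold. All 10 members passed the filter of more than 8 CPM (counts scaled to a common library total) in at least 4 libraries, as did 9959 genes in all. With a threshold of 0.05 on the adjusted p and of 0.2 on the size of the log2 fold change, 2 of 10 members were called, *Rgs6* and *Rgs7*, beside 2.19% of the genes tested (218). Both were called as increased, beside 2.06% (205). The groups did not overlap for 3 of 10 members, *Rgs6*, *Rgs7* and *Rgs12*, beside 11.8% of the genes tested (1177). Nothing is read from these counts, since the members were selected on this comparison. The median log2 fold change was 0.02 over the members and −0.03 over all genes tested. At an unadjusted p under 0.05 in edgeR's quasi-likelihood test were 1961 of the 9959 genes tested. Counts at that level given below for lists of genes stand beside this number. The number of genes called depended on single libraries. It was 0 without *non-silencing shRNA* replicate 1 (1563 at an unadjusted p under 0.05). Without *non-silencing shRNA* replicates 2, 3 and 4 it was 401, 121 and 9. Without *Fezf2 shRNA* replicates 1, 3 and 4 it was 12, 7 and 17. The number without *Fezf2 shRNA* replicate 2 is not listed here and lay within the same range of 0 to 401.

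**Figure D1:**
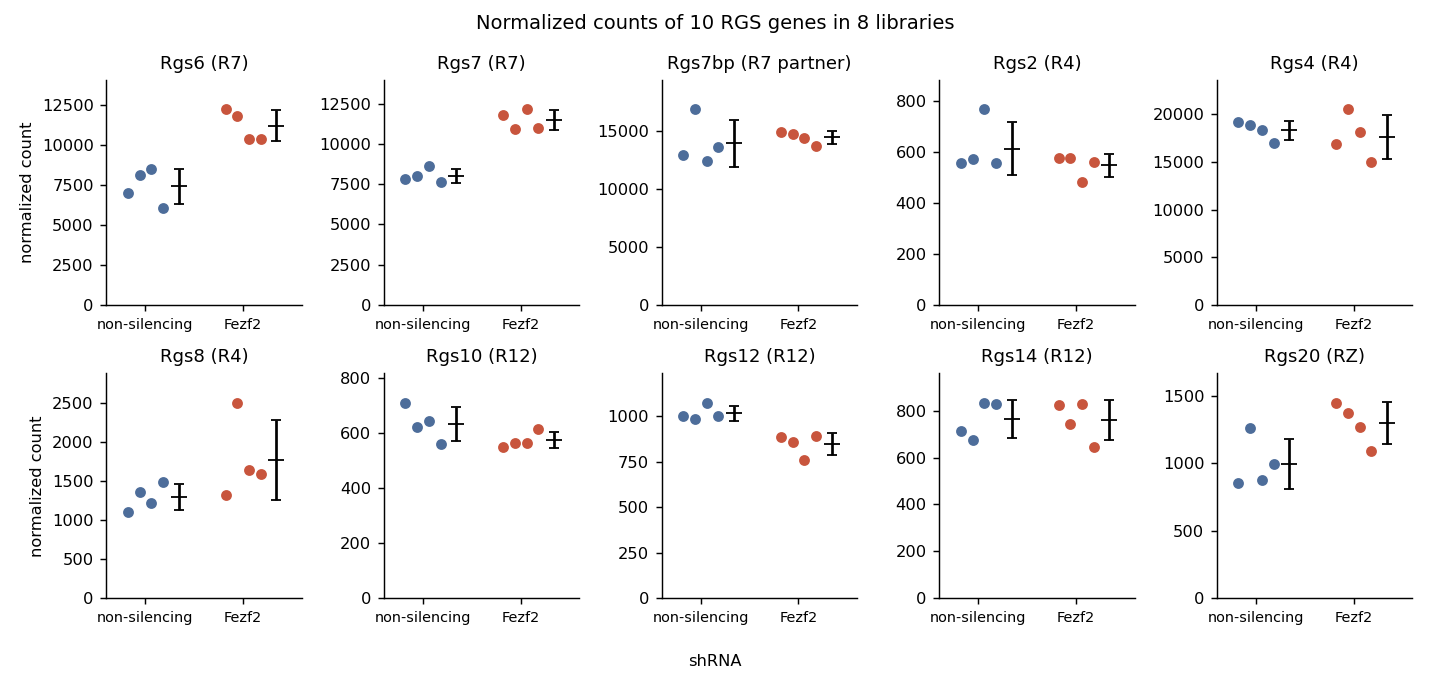
Normalized counts of the 10 RGS genes in each of the 8 libraries (points, in the order of replicates 1 to 4), with the mean and SD of each group in black and each axis starting at 0. The 4 *Fezf2 shRNA* libraries lie above every control for *Rgs6* and *Rgs7* and below every control for *Rgs12*.

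*Rgs7* (ENSMUSG00000026527), an R7 protein abundant in brain that acts on Gi/o alpha subunits, was counted over chr1:175059736-175491130 (GRCm38, minus strand), an interval of which 0.329% is exonic. It gave 7816, 7994, 8650.3 and 7619 normalized counts in the controls. In the *Fezf2 shRNA* libraries it gave 11834, 10918, 12173 and 10969. The highest control was still below the lowest *Fezf2 shRNA* library, and the means with their SD (n = 4 each) were 11474 ± 628 under *Fezf2 shRNA* and 8020 ± 447 for the controls, or 0.52 ± 0.064 as a log2 fold change with its SE.

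*Rgs6* (ENSMUSG00000021219), the closest relative of *Rgs7* among the members and known for its action on muscarinic and GABA-B signaling, was counted over chr12:82651829-83133744 (plus strand, 0.284% exonic). The controls gave 6996, 8122, 8462 and 6048 normalized counts. The *Fezf2 shRNA* libraries gave 12216, 11788, 10352 and 10353. Again the groups did not overlap, and *non-silencing shRNA* replicate 4 was the lowest library. The means were 11178 ± 968 under *Fezf2 shRNA* and 7407 ± 1102 in the controls (SD), with a log2 fold change of 0.59 ± 0.11 (SE). Because the tissue was bulk, more cells that express a gene and more RNA per cell cannot be told apart, nor can fewer cells and less RNA per cell.

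*Rgs6* and *Rgs7* are the longest of the 10 counted intervals, at 482 kb and 431 kb, and fold changes in these libraries rose with length. Fitted over all genes, the trend at these lengths was a log2 difference of 0.29 for *Rgs6* and 0.28 for *Rgs7*. With an offset for length in each library the log2 fold changes were 0.31 ± 0.088 and 0.24 ± 0.055 (SE), no member was called, and 2 genes were called of the 9959 (1088 at an unadjusted p under 0.05). *Rgs7* was no longer called without *non-silencing shRNA* replicate 1, and *Rgs6* was not called without that library, without *non-silencing shRNA* replicate 4 or without *Fezf2 shRNA* replicate 1, 3 or 4. The log2 fold changes over the 8 sets with 1 library left out were 0.49 to 0.56 for *Rgs7* and 0.51 to 0.67 for *Rgs6*.

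*Rgs7bp*, which encodes the membrane anchor of R7 complexes, had overlapping groups. Its counts were 12886, 16850 (replicate 2), 12351 and 13563 in the controls and 14895, 14736, 14394 and 13636 in the *Fezf2 shRNA* libraries. All 4 *Fezf2 shRNA* values lay within the range of the controls. The log2 fold change was 0.05 ± 0.092 (SE), with a trend of 0.10 at its length of 109 kb (chr13:104945904-105054930), and it was −0.05 with the length offset and 0.02 with library totals. It was 0.16 without *non-silencing shRNA* replicate 2, 0.02 and 0.01 without *non-silencing shRNA* replicates 1 and 3, and 0.08 without *Fezf2 shRNA* replicate 4.

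The promoters of *Rgs6* and *Rgs7* are printed because these members were called as increased. RefSeq windows (GRCm38.p6) were matched for 8 of 10 members, 11 windows in all, and the bases before the start were read, 250 in each. The windows were searched on both strands for the letters TATAAA that form the core of a TATA box, the cyclic AMP response element TGACGTCA, the GC box with its letters GGGCGG, and an E-box, spelled CACGTG; none of these contains another. Bases inside annotated exons are left out of the printed runs, and capitals mark a match.
*Rgs6*, chr12:82617249-82617498, plus strand: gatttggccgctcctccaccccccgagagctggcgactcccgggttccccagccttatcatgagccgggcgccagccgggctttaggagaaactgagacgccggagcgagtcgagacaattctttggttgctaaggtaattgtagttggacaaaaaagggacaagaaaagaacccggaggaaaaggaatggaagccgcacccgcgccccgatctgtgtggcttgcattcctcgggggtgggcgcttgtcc
*Rgs7*, chr1:175492546-175492795, minus strand: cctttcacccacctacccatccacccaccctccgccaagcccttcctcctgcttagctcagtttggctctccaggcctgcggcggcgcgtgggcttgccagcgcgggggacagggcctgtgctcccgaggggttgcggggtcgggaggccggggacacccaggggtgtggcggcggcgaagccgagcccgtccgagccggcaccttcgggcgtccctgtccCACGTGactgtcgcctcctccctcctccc
The *Rgs7* window was 72.4% G and C with 22 CpG, and held the E-box letters, which 6.02% of the 32851 windows over all genes also held. The *Rgs6* window was 59.2% G and C with 18 CpG and held none of the 4 motifs. Over all windows the median was 52.4% with 6 CpG. The *Rgs6* and *Rgs7* windows both lie before starts upstream of the intervals that were counted. Across the members' windows TATAAA was found in 1 of 11 (*Rgs4*; 12.4% of all windows), TGACGTCA in 0 (1.55%) and GGGCGG in 4 (32.7%), namely in those of *Rgs2*, *Rgs10* and both of *Rgs12*. In G and C content the members ranged from 43.2% (*Rgs7bp*, with 5 CpG) to 76.4% (*Rgs10*, with 27 CpG).

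The R4 members are small proteins made up of little beyond the RGS domain. *Rgs4*, a regulator of Gi/o and Gq alpha subunits that is abundant in cortical neurons, gave 19188, 18872, 18383 and 16955 normalized counts in the controls and 16885, 20558, 18130 and 15000.0 in the *Fezf2 shRNA* libraries. Its groups overlapped, with the highest and the lowest library both under *Fezf2 shRNA* (replicates 2 and 4). The log2 fold change was −0.06 ± 0.091 (SE, chr1:169741477-169747642), and it was above 0 with the length offset (0.05) and without *Fezf2 shRNA* replicate 4 (0.01). Without *Fezf2 shRNA* replicates 1 and 2 it was −0.04 and −0.14, and without *non-silencing shRNA* replicates 1 and 4 it was −0.03 and −0.09. The 2371 bases outside a shorter transcript, all exonic, gave 11776 ± 1586 under *Fezf2 shRNA* and 12425 ± 732 in the controls (SD), a log2 difference of −0.09.

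*Rgs8*, which is known for speeding the gating of G protein-activated potassium channels, gave 1104, 1362, 1225 and 1483 in the controls and 1320.0, 2501, 1637 and 1593 in the *Fezf2 shRNA* libraries (chr1:153653025-153700323). *Fezf2 shRNA* replicate 2 stood far above the other 7 libraries, and replicate 1 lay within the controls. The log2 fold change of 0.45 ± 0.17 (SE) was 0.23 without replicate 2. *Rgs8* was the 1 member with a separable exonic and a separable intronic part of at least 100 reads on average. Its exonic part of 2993 bases gave 1306 ± 444 normalized counts under *Fezf2 shRNA* and 965 ± 170 in the controls (SD), and its intronic part of 27.3 kb gave 354 ± 74.3 and 274 ± 17.9 in the same order. The log2 differences were 0.40 and 0.35, with *Fezf2 shRNA* replicate 2 the highest library in both parts.

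*Rgs2*, which acts mainly on Gq and is induced by neuronal activity, was counted over a short interval (chr1:144001680-144004135). The controls gave 555.7, 571.9, 767.2 and 555.4 normalized counts and the *Fezf2 shRNA* libraries 575.2, 573.8, 480.7 and 561.8. Replicate 3 of each group stood apart from the other 3, above them in the control group and below them in the other. The log2 fold change of −0.16 ± 0.12 (SE) was −0.03 without *non-silencing shRNA* replicate 3, and −0.10 without *Fezf2 shRNA* replicate 3. With the length offset it was −0.04. An exonic part of a wider *Rgs2* transcript (3219 bases of 4.82 kb), which reaches beyond the counted interval, gave a log2 difference of −0.09.

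*Rgs12*, a large R12 protein that besides its RGS domain carries domains for Ras and for inactive Gi alpha subunits, had the lowest log2 fold change of the members. It gave 997.4, 983.7, 1073 and 1002 normalized counts in the controls and 886.0, 856.2, 757.4 and 887.7 in the *Fezf2 shRNA* libraries (chr5:34949445-35033595). The groups did not overlap, and the control values had the smallest spread of the 10 members (coefficient of variation 3.96%). Its log2 fold change was −0.26 ± 0.075 (SE), between −0.28 and −0.21 with 1 library left out, and −0.33 with the length offset, since the trend at its length of 84.2 kb was 0.07. edgeR did not call *Rgs12*; DESeq2, with and without its prior, placed it past the threshold, and so called 3 of 10 members, beside 752 (without the prior) and 734 (with it) of the 9959 genes tested.

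*Rgs12* has an inner start from which shorter transcripts are annotated, and the reads could be separated there; this division was chosen after its values were seen. From the second start on (34.5 kb, 13.6% exonic), the controls gave 809.5, 814.5, 870.4 and 789.8 normalized counts and the *Fezf2 shRNA* libraries 651.9, 667.3, 610.1 and 681.4. The part upstream of it (49.6 kb, 5.69% exonic) gave 187.9, 169.3, 202.6 and 212.0 in the controls and 234.1, 188.9, 147.3 and 206.3 in the *Fezf2 shRNA* libraries. The groups thus separated downstream, at a log2 difference of −0.33, and overlapped upstream, at −0.01, where the counts were lower and more spread. The ratio of downstream to upstream reads was 3.44 ± 0.563 under *Fezf2 shRNA* and 4.29 ± 0.444 for the controls (mean and SD, n = 4 each), and its ranges overlapped (2.78 to 4.14 under *Fezf2 shRNA*, 3.72 to 4.81 in the controls). The intronic part with the most reads, 44.5 kb, gave a log2 difference of 0.02. Whether the parts differ was not tested. The bases before both starts are shown because the parts are divided there; GGGCGG or its reverse complement is in capitals.
*Rgs12*, first start, chr5:34949198-34949444, plus strand: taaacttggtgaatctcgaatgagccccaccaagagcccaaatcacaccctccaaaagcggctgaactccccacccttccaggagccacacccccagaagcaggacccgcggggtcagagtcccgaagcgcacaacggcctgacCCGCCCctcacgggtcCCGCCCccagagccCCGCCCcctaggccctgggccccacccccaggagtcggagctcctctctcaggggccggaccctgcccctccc
*Rgs12*, second start, chr5:34998828-34999056, plus strand: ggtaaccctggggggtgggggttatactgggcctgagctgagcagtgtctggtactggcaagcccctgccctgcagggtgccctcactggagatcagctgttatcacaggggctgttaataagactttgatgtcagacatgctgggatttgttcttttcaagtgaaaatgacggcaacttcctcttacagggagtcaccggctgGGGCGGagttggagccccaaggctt
The RefSeq window of the first start was 68.4% G and C with 14 CpG and that of the second 55.6% with 3 CpG.

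*Rgs10*, a small R12 protein known from microglia as well as neurons, gave 710.2, 620.4, 643.2 and 560.2 normalized counts in the controls and 549.0, 564.8, 564.3 and 615.0 in the *Fezf2 shRNA* libraries (chr7:128373621-128418173). The ranges overlapped, and the log2 fold change was −0.14 ± 0.092 (SE), or −0.09 without *non-silencing shRNA* replicate 1. Its intronic part of 42.2 kb gave −0.13. Of 9 tested microglial markers 0 were called by edgeR or DESeq2 (1 at an unadjusted p under 0.05) and 6 were above 0 (median log2 fold change 0.08). Their part in the counts of *Rgs10* was not tested. *Rgs14*, which also binds Ras and inactive Gi alpha subunits and is best known from hippocampal area CA2, gave 644.6 to 828.0 in the *Fezf2 shRNA* libraries and 676.1 to 834.0 in the controls. Its log2 fold change of −0.01 ± 0.11 (SE, chr13:55369732-55384687) changed sign with the scaling and was 0.0006 with the size factors of DESeq2, −0.04 with library totals and 0.07 with the length offset. Each of the 8 libraries moved it when left out, within −0.06 to 0.07.

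*Rgs20*, an RZ protein that prefers the Gz alpha subunit, gave 852.8, 1258, 876.3 and 992.1 normalized counts in the controls and 1448, 1374, 1269 and 1093 in the *Fezf2 shRNA* libraries (chr1:4909576-5019539). *Non-silencing shRNA* replicate 2 reached into the *Fezf2 shRNA* range, and the other 3 controls were below it. For *Rgs20* the log2 fold change was 0.38 ± 0.13 (SE), and edgeR did not call it. The value was 0.51 without that control, where *Rgs20* was also called, and 0.31 without *non-silencing shRNA* replicate 1. The trend at its length of 110.0 kb was 0.10, and with the length offset the value was 0.28 ± 0.13 (SE). Its intronic part with the most reads, 153 kb of a wider transcript, gave a log2 difference of 0.35. The part upstream of the counted start, 50.7 kb, gave 0.11, and an inner transcript that keeps introns, 96.9 kb, gave 0.44, both chosen after their values were seen. In all 3 parts the groups overlapped, and whether the parts differ was not tested.

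**Figure D2:**
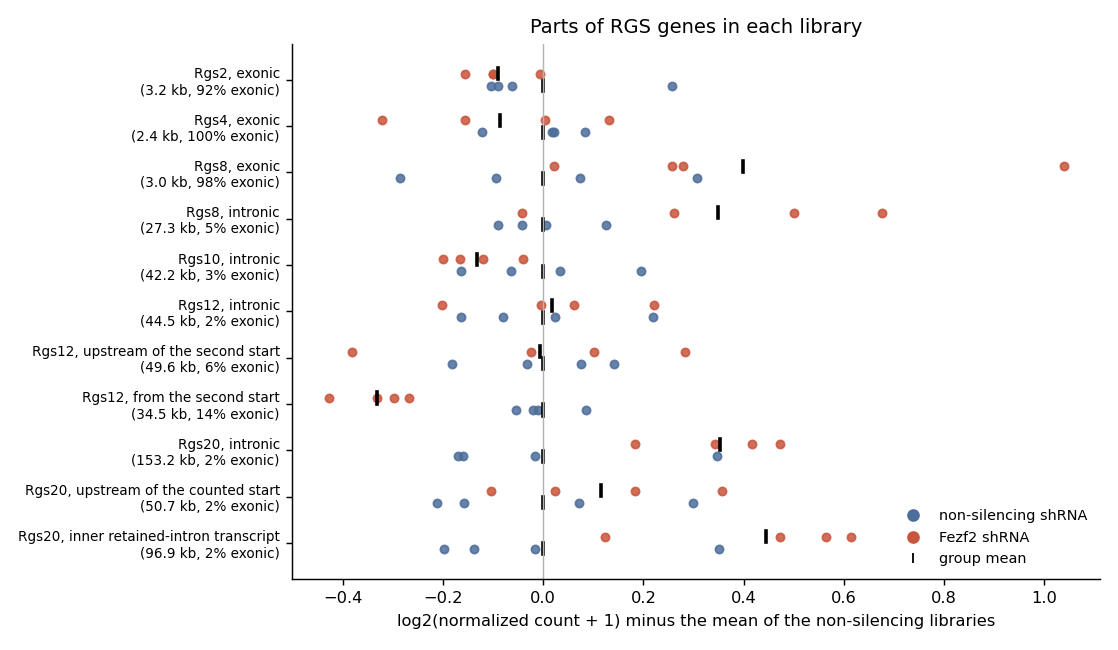
Parts of *Rgs2*, *Rgs4*, *Rgs8*, *Rgs10*, *Rgs12* and *Rgs20* that nested transcripts allow to be read apart; each point is a library, as log2(normalized count + 1) minus the mean of the *non-silencing shRNA* libraries, and black bars are group means. The part of *Rgs12* from its second start is the one whose groups do not overlap, at a log2 difference of −0.33.

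The members cover lengths from 2.46 kb (*Rgs2*) to 482 kb (*Rgs6*), and the length trend orders part of their fold changes. Over genes of under 10 kb the median log2 fold change was −0.12 (2153 genes), and over those of 300 kb or more it was 0.29 (407 genes). *Rgs2* and *Rgs4* in the first class were at −0.16 and −0.06. *Rgs6* and *Rgs7* in the last were above its upper quartile of 0.39. In the middle class of 30 to 100 kb, where the quartiles of 3119 genes were −0.06 and 0.10, *Rgs8* was above and *Rgs10* and *Rgs12* below. *Rgs20* and *Rgs7bp*, alike in length, were at 0.38 and 0.05, on different sides of their class median of 0.15 (1297 genes). What gives rise to the trend was not tested.

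**Figure D3:**
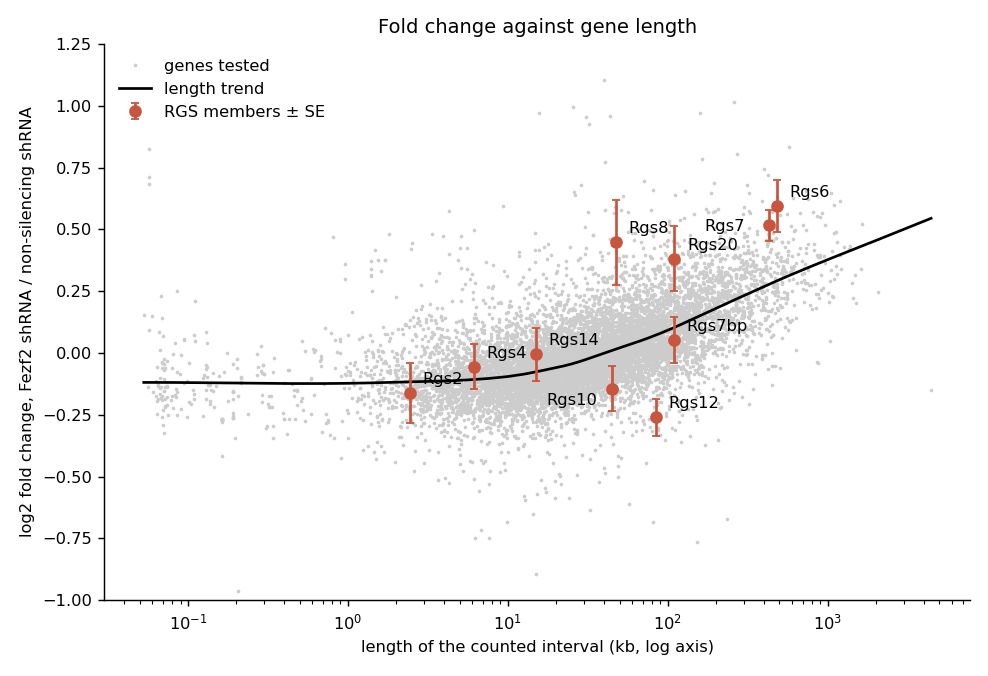
Log2 fold change (*Fezf2 shRNA* over *non-silencing shRNA*) against the length of the counted interval on a log axis, for the genes tested (grey, cut at the edges of the plot), the trend over all genes (line) and the 10 RGS members with their SE. *Rgs6* and *Rgs7* lie at the long end and above the line, *Rgs8* and *Rgs20* above it, *Rgs10* and *Rgs12* below.

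Levels were compared between members as CPM per kb of the counted interval, which counts introns and so places long genes low. *Rgs4* was the most abundant in the controls, at 54.3 ± 2.92 CPM per kb (SD, n = 4), 11.9 times the level of *Rgs2*, the next. *Rgs2* was at 4.55 ± 0.767, *Rgs7bp* at 2.33 ± 0.338, *Rgs14* at 0.931 ± 0.0981 and *Rgs8* at 0.498 ± 0.0635. The R7 pair stood below them, *Rgs7* at 0.339 ± 0.0189 and *Rgs6* at 0.280 ± 0.0417. *Rgs10* (0.259 ± 0.0253), *Rgs12* (0.220 ± 0.00869) and *Rgs20* (0.165 ± 0.0308) were the lowest. Neighbours in this order did not overlap in the controls, except *Rgs6* with *Rgs10* and *Rgs10* with *Rgs12*. In the *Fezf2 shRNA* libraries *Rgs7* was at 0.485 ± 0.0265 and *Rgs6* at 0.423 ± 0.0366 CPM per kb.

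**Figure D4:**
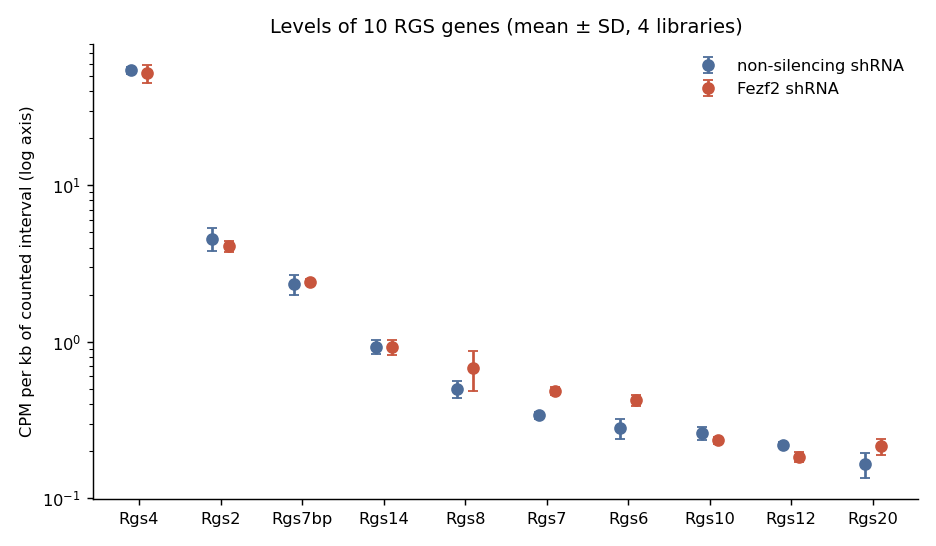
Levels of the 10 RGS genes as CPM per kb of the counted interval on a log axis, mean ± SD of 4 libraries per group, ordered by the controls. The order runs from *Rgs4* at 54.3 to *Rgs20* at 0.165 CPM per kb.

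Of 12 RGS genes outside the group, 6 passed the filter and 0 were called by edgeR, with 2 at an unadjusted p under 0.05 and 1 called by DESeq2, *Rgs5*. Their median log2 fold change was −0.11, and 1 of 6 was above 0. *Rgs5*, an R4 gene typical of pericytes, gave 3022, 2913, 2645 and 3275 normalized counts in the controls and 2397, 2227, 2506 and 2381 in the *Fezf2 shRNA* libraries. The groups did not overlap, at a log2 fold change of −0.32 ± 0.074 (SE, edgeR adjusted p = 0.0552), and the adjusted p was between 0.00474 and 0.203 over all settings. It was called without *non-silencing shRNA* replicate 3 (adjusted p = 0.0471) and with TMM computed without the 10 genes with the most counts. The summed level of 7 pericyte and smooth muscle markers, led by *Vtn*, was 45.9, 36.6, 37.0 and 54.0 CPM in the controls and 30.9, 36.9, 42.8 and 36.0 in the *Fezf2 shRNA* libraries, with *Kcnj8* and *Anpep* below 1 CPM on average and 0 of 2 tested called by edgeR or DESeq2 (1 at an unadjusted p under 0.05). Its part in the lower counts of *Rgs5* was not tested. *Rgs17*, of the RZ group, had a log2 fold change of 0.28 ± 0.12 and *Rgs19* of −0.18 ± 0.092 (SE), both with overlapping groups; *Rgs17* was at 0.18 without *non-silencing shRNA* replicate 1 and at 0.05 when its widest transcript was counted, and *Rgs19* was at −0.07 with the length offset. The groups also overlapped for *Rgs9* and *Rgs11* of the R7 group. For *Rgs11*, *non-silencing shRNA* replicate 4 gave 1235 normalized counts and the other controls 495.5 to 689.5. *Rgs1*, *Rgs13*, *Rgs16*, *Rgs18*, *Rgs21* and *Rgs22* did not pass the filter.

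On chromosome 1 lie 5 of the 10 members and 6 of the 12 other RGS genes. *Rgs4* and *Rgs5* are 45.7 kb apart on opposite strands, and *Rgs8* and *Rgs16* 40.0 kb apart on the same strand. In coding sequence, *Rgs6* and *Rgs7* were identical at 71.2% of 1418 aligned bases, with a longest shared run of 22 bases, and *Rgs4* and *Rgs5* at 69.2% of 520. *Rgs20* and *Rgs17* were identical at 70.1% of 670 bases, and *Rgs8* and *Rgs16* at 68.6% of 516 with a run of 24. Between transcripts of any pair of members the longest exact run was 37 bases (*Rgs7bp* and *Rgs14*).

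Other genes lie inside 4 of the counted intervals, where reads of an inner gene on the same strand cannot be told apart from those of the member. Whether the counting used strand was not stated, so this was not known for inner genes on the opposite strand. The counts of the inner genes, relative to the member's, were 5.88% in *Rgs12* (*Mir3097*), 5.12% in *Rgs10* (*Gm15503*), 4.33% in *Rgs20* (*Gm16041*, antisense, beside *Gm17100* with 1.06%) and 0.0728% in *Rgs6* (*Gm22149*, opposite strand).

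The genes with which RGS proteins act were read as 7 lists of 96 genes, of which 63 passed the filter and 2 were called, beside 218 of the 9959 genes tested. Both were Gi/o-coupled receptors and both were called as increased. The median log2 fold change over the 63 was −0.0015, with 31 above 0, beside −0.03 over all genes tested. *Grm7*, a presynaptic metabotropic glutamate receptor, gave 15642, 17769, 17403 and 14506 normalized counts in the controls and 25322, 23232, 25213 and 23070.0 in the *Fezf2 shRNA* libraries. The groups were well apart, at a log2 fold change of 0.57 ± 0.076 (SE, edgeR adjusted p = 0.0157; higher in 4 of 4 libraries). *Grm3*, a group II receptor of neurons and astrocytes, gave 11556, 11791, 10964 and 11227 in the controls and 13522, 13765, 13923 and 14527 in the *Fezf2 shRNA* libraries. It too was higher in 4 of 4 libraries, at 0.29 ± 0.054 (SE, edgeR adjusted p = 0.0272). Both are long, at 920.5 kb and 240 kb, and with the length offset they were at 0.20 (adjusted p = 0.232) and 0.09 (adjusted p = 0.618), not called. Without *non-silencing shRNA* replicate 1 or *Fezf2 shRNA* replicates 1 or 3 the adjusted p of *Grm7* was 0.0881, 0.0509 and 0.0631; that of *Grm3* was 0.0971, 0.0779 and 0.0797 without the same libraries, and 0.0519, 0.0773 and 0.0696 without *non-silencing shRNA* replicates 3 and 4 and *Fezf2 shRNA* replicate 4. Over all settings the adjusted p was at most 0.232 for *Grm7* and at most 0.618 for *Grm3*.

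Among the 22 of 34 Gi/o-coupled receptors tested the median log2 fold change was −0.03, with 8 above 0. *Chrm2*, the M2 muscarinic receptor, was higher in 4 of 4 libraries at 0.49 ± 0.14 (SE, edgeR adjusted p = 0.0923; 0.0153 by DESeq2), but at 0.12 when its widest transcript was counted. Of 16 Gq-coupled receptors 11 were tested and 0 called by edgeR, with a median of 0.14. At an unadjusted p under 0.05 were 4, beside 1961 of the 9959 genes tested. DESeq2 called 1, beside 752 of the 9959 without its prior. *Grm5* was at 0.35 ± 0.086 (SE, adjusted p = 0.0669) with groups that did not overlap, and at 0.04 with the length offset. *Htr2c* was at −0.67 ± 0.25, with *non-silencing shRNA* replicate 3 at 1211 normalized counts and the other controls between 493.4 and 729.8; without that library it was at −0.33, and with the prior of DESeq2 at −0.26.

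Of the partners of R7 proteins, *Gnb5* and the receptor gene *Gpr158* were tested and neither was called by edgeR (1 at an unadjusted p under 0.05; 1 called by DESeq2). *Gnb5*, the obligate subunit, was at −0.06 ± 0.099 (SE) with overlapping groups, was above 0 without *non-silencing shRNA* replicate 2 (0.05), and was at −0.11 and −0.12 without *non-silencing shRNA* replicates 1 and 4. *Gpr158*, whose product recruits R7 complexes, gave 12500.5, 11726, 12359 and 12038 normalized counts in the controls and 14191, 13384, 15155 and 14762 in the *Fezf2 shRNA* libraries. It was thus higher in 4 of 4 libraries, at 0.24 ± 0.058 (SE, edgeR adjusted p = 0.0597; 0.0027 by DESeq2; 0.0398 without *Fezf2 shRNA* replicate 2), and at −0.05 with the length offset, since the trend at 463 kb was 0.29.

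Of 16 G protein alpha subunits 11 were tested, with 0 called by edgeR or DESeq2 (1 at an unadjusted p under 0.05) and a median of 0.01; *Gnai2* was at −0.18 ± 0.082, *Gnaq* at 0.17 ± 0.086 and *Gna12* at −0.12 ± 0.068 (SE). Without *non-silencing shRNA* replicate 4 *Gnai2* was at −0.11 and *Gna12* at −0.08, and with the length offset *Gnaq* was below 0, at −0.04. Of 16 beta and gamma subunits 10 were tested, again with 0 called by either tool (1 at an unadjusted p under 0.05) and a median of −0.02. *Gng2* was at 0.27 ± 0.11, *Gnb1* at 0.13 ± 0.074 and *Gng13* at −0.12 ± 0.12 (SE), the last at −0.05 without *non-silencing shRNA* replicate 3 and at −0.26, −0.07 and −0.05 without *Fezf2 shRNA* replicates 2, 3 and 4. *Gng2* was below 0 when its widest transcript was counted (−0.03), and with the length offset *Gng2*, *Gnb1* and *Gng13* were at 0.17, 0.09 and −0.0048. Among the G protein-activated potassium channel (GIRK) subunits *Kcnj3* and *Kcnj6* had log2 fold changes of 0.21 ± 0.076 and 0.31 ± 0.12 and *Kcnj9* of −0.12 ± 0.077. Of these 3, 0 were called by edgeR or DESeq2. At an unadjusted p under 0.05 were 2, beside 1961 of the 9959 genes tested. *Kcnj6* was called without *non-silencing shRNA* replicate 2 (edgeR adjusted p = 0.0301), and *Kcnj9* was at −0.05 without *non-silencing shRNA* replicate 4. With the length offset the values of *Kcnj3*, *Kcnj6* and *Kcnj9* were 0.06, 0.10 and −0.01. Of 6 other regulators of alpha subunits 4 were tested and 0 called by edgeR (1 at an unadjusted p under 0.05; 1 called by DESeq2). *Ric8b*, a chaperone of the alpha subunits of Gs and Golf, was higher in 4 of 4 libraries at 0.23 ± 0.058 (SE, edgeR adjusted p = 0.0621; 0.0054 by DESeq2; 0.0478 without *non-silencing shRNA* replicate 2), while *Ric8a* was at −0.18 ± 0.082 and *Gpsm1* at −0.11 ± 0.10. *Ric8a* was at −0.12 without *Fezf2 shRNA* replicate 4, and *Gpsm1* at −0.06 without *non-silencing shRNA* replicate 4 and at −0.04 and −0.20 without *Fezf2 shRNA* replicates 1 and 3. With the length offset *Ric8b* was at 0.14 and *Ric8a* at −0.07.

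Of 17 pathway genes under 10 kb, 2 were above 0 and the median was −0.08; of 6 at 300 kb or more, 6 were above 0 and the median was 0.25, beside 0.29 for all genes of that length.

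**Figure D5:**
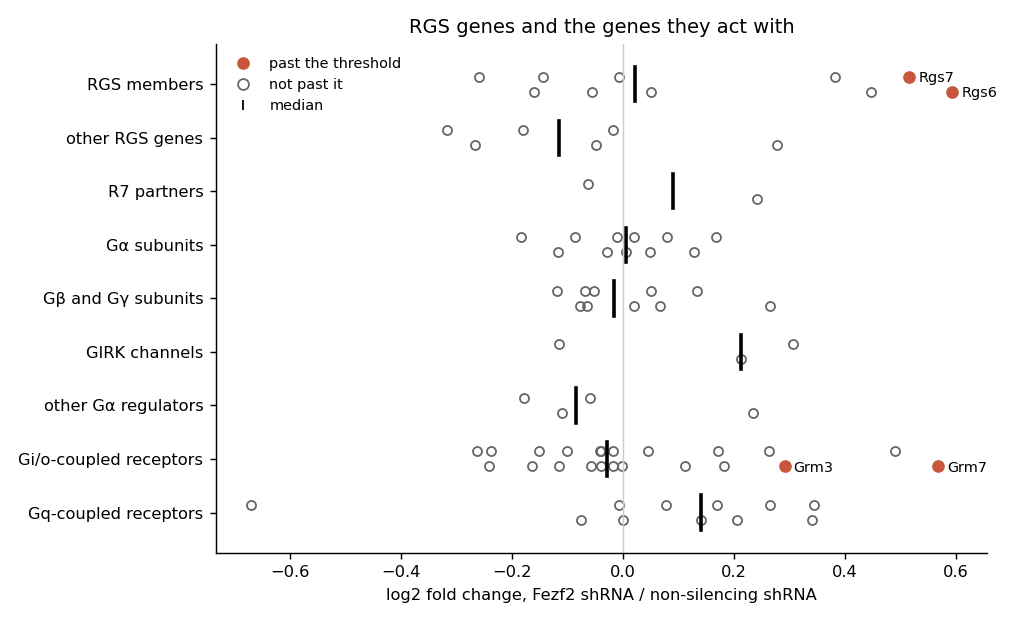
Log2 fold changes of the tested genes of the RGS members, the other RGS genes and the 7 lists of genes they act with; filled points are past the threshold and black bars are medians. The points past it are *Rgs6*, *Rgs7*, *Grm3* and *Grm7*.

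The labelled tissue and the cells it held were read from marker lists, none of whose genes was called by edgeR. Neuronal markers, led by *Snap25*, summed to 3485, 3847, 3499 and 3439 CPM in the controls and 3680.2, 3729, 3737 and 3571 in the *Fezf2 shRNA* libraries (6 genes tested, 2 at an unadjusted p under 0.05 and 1 called by DESeq2). Neuronal markers were thus high in every library. Oligodendrocyte markers, led by *Mbp*, summed to 1149, 1570.0, 1375 and 2084 CPM in the controls and 903.1, 854.1, 1398 and 1402 in the *Fezf2 shRNA* libraries. All 7 were below 0, with a median log2 fold change of −0.55, though the sums overlapped. At an unadjusted p under 0.05 were 5, beside 1961 of the 9959 genes tested. DESeq2 called 2, beside 752 of the 9959 without its prior.

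Astrocyte markers, led by *Slc1a2*, summed to 1318, 1194, 1303 and 1152 CPM in the controls and 1266, 1220, 1201 and 1163 in the *Fezf2 shRNA* libraries, with 0 of 7 at an unadjusted p under 0.05 and 0 called by DESeq2. Oligodendrocyte precursor markers, led by *Gpr17*, summed to 95.7, 108, 105 and 119 CPM and to 91.9, 86.6, 90.3 and 101, and 4 of 4 tested were below 0 (2 at an unadjusted p under 0.05, 1 called by DESeq2). Endothelial markers, led by *Tek*, were at 49.1, 41.9, 44.4 and 58.8 CPM and at 46.5, 41.0, 39.4 and 44.4, with 1 of 6 tested (0 at an unadjusted p under 0.05, 0 called by DESeq2). In each of these lists the groups overlapped. Markers of striatal projection neurons, led by *Pde10a*, summed to between 106 and 118 CPM in the controls and between 111 and 137 in the *Fezf2 shRNA* libraries, with *Adora2a* below 1 CPM on average (4 of 7 tested, 1 at an unadjusted p under 0.05 and 1 called by DESeq2). Meningeal markers, led by *Col1a2*, were low, at 6.53 to 22.6 CPM and 4.94 to 30.5 CPM, with *Lum* below 1 CPM on average and 0 of 6 past the filter. The part of any cell type in the values of the RGS genes was not tested.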

How the data were processed

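Per the labels, each library was 1 M1 sample, and each was treated as 1 animal. The counts were deposited by the authors as raw reads per Ensembl transcript, made with TopHat2 (2.1.1) and bedtools (2.26.0) as the submitters' processing notes name them. A deposited table of the authors' DESeq2 (1.10.1) results holds fold changes and p values and was not used. Of 94647 transcripts 91320 matched GENCODE M21 (GRCm38); the other 3327 held 1.82% of counts. Each gene was represented by its lowest-numbered Ensembl transcript. Genes were fitted with edgeR 4.0.16 (TMM scaling; p of the quasi-likelihood test adjusted by Benjamini-Hochberg) under R 4.3.3; DESeq2 1.42.0, another scaling, filter, threshold or transcript, the replicate number as a block, a length offset (loess with a span of 0.3) and each library left out were alternatives. The SE is that of the fit. Fitting was tested on simulated data. Parts of genes were called exonic from 80% exonic bases and intronic up to 5%, and needed a mean of 100 reads; 1 was added before the log2. A transcript taken undivided as a part could span at most 0.8 of the gene, a limit set after the data were seen; parts of a longer transcript outside a shorter one had no such limit. Coding sequences were aligned with Biopython 1.88; Python 3.11.15, numpy 2.4.6, pandas 2.3.3 and matplotlib 3.10.9 were used. The members and lists were chosen with earlier results of these data known. Genes named outside the members were those called, the 3 of each list with the smallest p, *Fezf2*, and *Rgs9* and *Rgs11* as R7 genes. Of the markers, the most abundant and those below 1 CPM were named. Results not to be reported were left out, with nothing put in their place.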

Additional observations from a re-analysis of the deposited data

Results flagged for a closer look

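In 3 of 66 groups of 4 libraries examined, 1 library stood far from the other 3; chance gives about 1 in 20 groups. *Rgs2* gave 767.2 normalized counts in *non-silencing shRNA* replicate 3 and 555.4 to 571.9 in the other controls, and 480.7 in *Fezf2 shRNA* replicate 3 beside 561.8 to 575.2 in the others. *Kcnj9* gave 3264 in *Fezf2 shRNA* replicate 3 and 3421 to 3434 in the others, a small gap beside an unusually narrow range.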

How the results depend on the processing

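Over 20 alternatives each, the log2 fold changes of the 10 members moved by more than the spread between replicates in 4 of 200 cases, all of them *Rgs6* and *Rgs7* with the length offset, alone or with the replicate block (0.31 and 0.31; 0.24 and 0.24). The sign of *Rgs4*, *Rgs7bp* and *Rgs14* changed with the setting, and that of the other 7 did not.

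The 218 genes called became 111 with more than 1 CPM, 85 with no filter, 752 and 734 with DESeq2 without and with its prior, and 2 with the length offset, alone or with the block. With the replicate block 89 were called. Same-numbered samples deviated together with correlations of 0.31, 0.09, −0.13 and 0.17, and samples of different numbers with −0.23 to 0.27. With 4 libraries a group, these values cannot decide whether the numbers pair samples. With 1 library left out, between 0 and 401 genes, 0 and 3 members, 0 and 1 other RGS genes and 0 and 5 pathway genes were called. The 2 members called became 0 with the length offset, alone or with the block. *Rgs5*, 1 of the other RGS genes, was called when TMM left out the 10 largest genes by count and with both forms of DESeq2. Pathway genes called were 1 with no filter and with the block, 6 with both forms of DESeq2 and 0 with the length offset, alone or with the block. The replicate block changed the call of *Grm3* among the named genes (adjusted p = 0.0611).

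Directions reversed for *Gnb5* (0.0481 without *non-silencing shRNA* replicate 2, the highest of −0.122 to 0.0481 with 1 library left out), *Gng2* (−0.0291 with the widest transcript) and, with the length offset alone and with the block, *Gpr158* (−0.0479 and −0.0463) and *Gnaq* (−0.0399 and −0.0409). Of 459 alternatives for genes outside the members, 421 kept direction and side, 15 lost the call and 17 gained it. With a minimum of 50 reads 2 members, *Rgs8* and *Rgs20*, had both an exonic and an intronic part. By the widest transcript the control levels were 3.65 CPM per kb for *Rgs2* and 0.133 for *Rgs20*. With the lower filters more genes were tested and fewer were called. The cause of this and of the other differences was not tested.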

Other observations

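Limits of these values are shared by all members. Counts over whole intervals mix spliced and unspliced RNA, and *Rgs7* and *Rgs7bp* could not be divided into exonic and intronic parts because each has 1 counted transcript. The comparison rests on 4 libraries a group, and its number of calls moved between 0 and 401 with 1 library left out. Pairs of libraries of a group differed well beyond sampling noise, by a chi-square of 35.1 to 97.8 per gene, which is more than the same library sequenced again would give; whether 2 libraries came from 1 animal was not tested.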
